A study of Mus musculus with 572 samples.

Results

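Broad and narrow EED-cKO mTEC-high are the cells at the ends of the range of transcriptome breadth among the EED-cKO cells measured by RamDA-seq. The breadth of a cell was the number of genes at 5 CPM or more, where CPM is reads of a gene per 1000000 counted reads of that cell. In each experimental batch the 25% of cells with the largest breadth were taken as broad and the 25% with the smallest as narrow, and the batches were pooled. This gave 74 broad and 74 narrow cells of the 572 cells in the series. On each side there were 21 of 87, 19 of 76, 15 of 63 and 19 of 77 EED-cKO cells in batches 3, 4, 8 and 9. EED-cKO mice carry a floxed Eed allele that Foxn1-Cre deletes in thymic epithelial cells, so that these cells lack EED, a core subunit of PRC2, from early in their development, and their Aire gene is intact. All cells were C57BL/6 neonatal mTEC-high (CD45-EpCAM+Ly51-MHCII-high), sorted 1 to a well, at day 4 of age in batches 3 and 4 and at day 3 in batches 8 and 9. The Aire/EED-dKO cells of the series carry the same Eed deletion, are labelled as lacking Aire too, and are used here as the comparison. Reads of Aire were nevertheless counted in them, with a median of 5.29 CPM in broad and 8.43 CPM in narrow cells, and 1 broad cell of batch 7 had 1665.5 CPM and 1 narrow cell of that batch 153.9 CPM. They came from 4 other batches of 88, 76, 38 and 67 cells at day 4. No label names an animal, so the broad and the narrow cells each count as 1 sample. The groups were chosen on the measured counts, so every value below describes them, and none was tested.

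mTEC-high are the mature epithelial cells of the thymic medulla. They present self antigens on MHC class II, and many of them express Aire, a nuclear factor under which medullary cells transcribe many genes otherwise restricted to peripheral tissues. PRC2 places the repressive H3K27me3 mark on histones through its enzyme subunit Ezh2, with Suz12 and Eed as the other core subunits.

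Summed over cells, broad cells had more RNA of cell cycle and histone genes, and most zinc finger genes were slightly higher in them. Narrow cells had more Aire and costimulatory RNA, somewhat more MHC class II RNA, and more keratin RNA. Aire was 599 CPM in broad and 1225 CPM in narrow cells. The 12 mitotic markers summed to 1358 CPM in broad and 108.8 CPM in narrow cells, while the median cell had 125.04 and 57.1 CPM. A gene is called higher here when its reads, summed over the cells of a side, differed by a log2 ratio of 1 or more after 0.1 CPM was added and lay on the same side of 0 in all 4 batches. Of 21964 genes that had 5 reads or more in no less than 5% of EED-cKO cells, 10.6% were called higher in broad cells and 3.22% (708 genes) higher in narrow cells. These shares are the background for the lists below, together with the median log2 ratio of all these genes, 0.21 in favour of broad cells.

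The median breadth was 12174.5 genes in broad cells (11584 to 14174) and 10332 in narrow cells (6776 to 10731), against 11234 over all EED-cKO cells. The rule left close neighbours on either side of its limits. In batch 3 the last broad cell had 11829 genes and the next cell below it 11809, and the last narrow cell had 10731 and the next above it 10750. The corresponding limits were 11584 and 11516, and 10704 and 10731, in batch 4. They were 11956 and 11902, and 10595 and 10651, in batch 8, and 11780 and 11739, and 10719 and 10859, in batch 9. The sides are thus the ends of a continuous range of breadth. Their libraries were also deeper, with a median of 1361098 counted reads per cell (355187 to 2419312) against 962013 (216139 to 1631460) in narrow cells. After every cell was thinned to 600000 reads, which left out 3 broad and 8 narrow cells, the medians were 12526 and 10661 genes, and the lowest broad cell (11888) was above the highest narrow cell (11336). Reads were spread more evenly in broad cells, where the 100 most abundant genes of a cell took a median of 10.3% of its reads against 14.7% in narrow cells. This share is tied to the rule, with a Spearman's rho with breadth of -0.61 over all EED-cKO cells.

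The mean broad cell exceeded the mean narrow cell by 2224.95 genes, mostly of middle levels. Genes at 20 to 100 CPM over all EED-cKO cells made up 42.1% of this difference (936 genes per cell) and those at 5 to 20 CPM 36.1% (802 genes). Genes under 1 CPM added 2.09%. Protein-coding genes accounted for 81.2%, long noncoding RNAs for 8.24% and pseudogenes for 2.37%. The difference ran across the whole table, as 22461 genes were at 5 CPM or more in a larger share of broad cells and 7821 in a larger share of narrow cells.

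**Figure D1:**
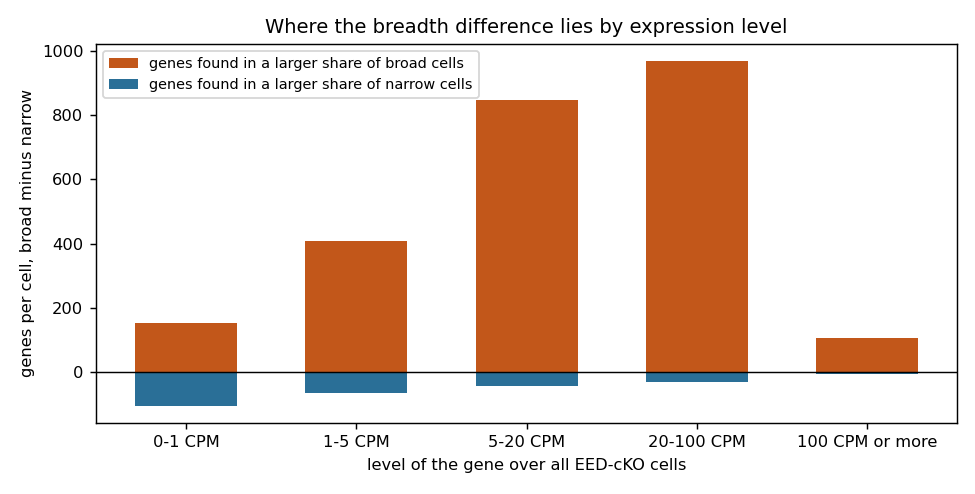
Mean number of genes at 5 CPM or more per cell, broad minus narrow, by the level of the gene over all EED-cKO cells in CPM. Bars above 0 sum the genes found in a larger share of broad cells and bars below 0 those found in a larger share of narrow cells; the tallest bar is the class of 20 to 100 CPM, whose net difference is 936 genes per cell.

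Aire (ENSMUSG00000000731, GRCm38 chr10:78030022-78043610, partly overlapped by another gene) was at 5.00 to 2915 CPM in single broad cells, with a median of 526, and at 15.5 to 3706 CPM in narrow cells, with a median of 1275. The ranges overlapped widely, and every cell of both sides had Aire at 5 CPM or more. Summed over cells, broad and narrow cells had 716 and 1398 CPM in batch 3, 675 and 1277 in batch 4, 442 and 965 in batch 8, and 531 and 1196 in batch 9. Narrow cells were thus higher in each batch, with a log2 ratio of -1.03 (-1.17 to -0.92). The exact 95% Poisson interval was 594 to 604 CPM in broad and 1217 to 1233 CPM in narrow cells, and such intervals cover counting error only, since the reads carry no molecular barcode and several can come from 1 molecule. Cells that expressed the gene were nearly as many on both sides, with 63 of 74 broad cells at 100 CPM or more (85.1%, Clopper-Pearson 95% interval 74.96 to 92.3) and 68 of 74 narrow cells (91.9%, 83.2 to 96.97). These intervals treat cells as independent draws, although the cells share batches and no label names an animal. By batch the shares were 73.3% to 90.5% in broad and 86.7% to 95.2% in narrow cells. With cells under 100 CPM of Aire left out before the split, the log2 ratio was -0.95. Over all EED-cKO cells Spearman's rho of Aire with breadth was -0.28, and it was -0.18 to -0.33 within batches, where the cells share a batch and CPM and breadth share the library total.

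**Figure D2:**
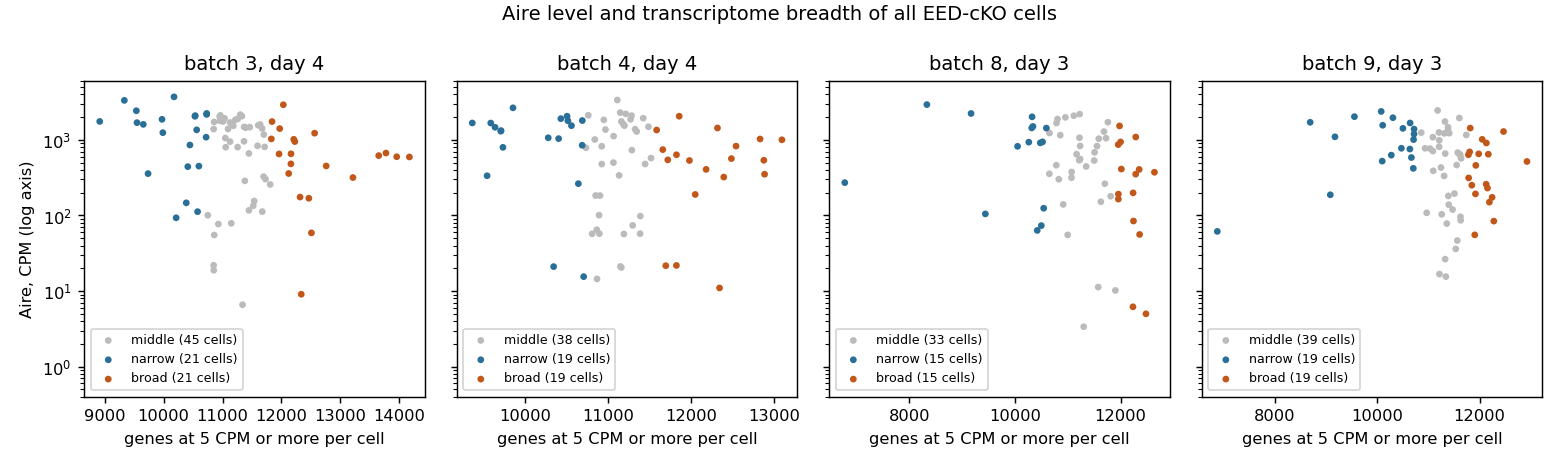
Aire in CPM on a log axis against the number of genes at 5 CPM or more, 1 panel per batch and 1 point per EED-cKO cell, with broad, narrow and other cells in different colours. Cells of low Aire occur at every breadth, and the cells above 1000 CPM lie more often at the narrow end, where the batch medians are 933 to 1603 CPM against 352 to 619 CPM in broad cells.

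The other genes of mature mTEC-high also lay below 0, most of them within the call limit. All 11 genes of this list were tested, none had a log2 ratio above 0 and 3 were called higher in narrow cells, with a median of -0.53 (batches -0.73 to -0.48) against 0.21 for all genes. The 3 called were Aire, Cd80 and Cd86, the last of which code for ligands that costimulate T cells. Cd80 was 80.3 CPM in broad and 175.6 CPM in narrow cells (log2 ratio -1.13), but in batch 3 the sides were close, at 105.7 and 112.8 CPM. Cd86 was 12.6 and 67.8 CPM (-2.42, batches -4.67 to -1.03) and reached 5 CPM in 21 broad and 36 narrow cells. The MHC class II chains were in every cell and differed by less than the call limit. H2-Aa ranged from 435 to 1343 CPM in broad cells (median 896) and from 595 to 2843 CPM in narrow cells (median 1200), with a log2 ratio of -0.53 (-0.73 to -0.43). H2-Ab1 had -0.53, H2-Eb1 -0.53 and Cd74, the invariant chain, -0.51, so that these 4 genes kept nearly equal ratios in the summed reads. The 13 genes of antigen processing, which cut peptides and load them on MHC molecules, had a median of -0.38 (-0.49 to -0.29), all below 0 and none called. Among them B2m was 714 and 988 CPM and H2-K1 926 and 1204 CPM. Epcam, the epithelial gate marker, was at 5 CPM or more in all broad and narrow cells, with 290 and 310 CPM.

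The genes that the study ties to Aire-expressing cells alone, here called Aire-driven genes, had a lower level in broad cells. Of the 444 such genes in the supplementary rows held here, 324 could be tested, 11 were called higher in broad cells and 37 (11.4%) higher in narrow cells, with a median log2 ratio of -0.68. The batch medians were 0.10, -0.46, -0.56 and -0.88 in batches 3, 4, 8 and 9, so that batch 3 had another sign than the other batches. Their summed level in a cell had a median of 4905 CPM in broad cells (1270 to 33224) and 10219 CPM in narrow cells (1359 to 66170). The number of Aire-driven genes at 5 CPM or more, which is part of the breadth that chose the sides, had a median of 63 in broad cells (quartiles 43.25 and 93) and 55 in narrow cells (40 and 72.5). Its means of 70.1 and 57.03 stood in nearly the same ratio as those of all genes, 12282 and 10057. At 600000 reads per cell these numbers were 65 and 57.5, and in batch 9 they were 58 and 60. With breadth taken as the residual on log reads, which kept 59 of the broad and 54 of the narrow cells, the median log2 ratio was 0.07. It was 0.22 among cells of 900000 to 1500000 reads, a window added after the data were seen, with 44 cells on each side. The part of depth in this change was not tested.

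The 5 Aire-driven genes fixed by their place in the held rows gave mixed values. Myh3, an embryonic muscle myosin, was 0.757 CPM in broad and 10.0 CPM in narrow cells, and Gal, which codes for the neuropeptide galanin, 12.2 and 41.8 CPM, and both were called higher in narrow cells. Acoxl was 6.97 and 45.9 CPM but changed sign in 1 batch. Nrxn3, a synaptic adhesion protein, was 17.6 and 10.7 CPM, and Oas1h 44.8 and 42.1 CPM, with batch ratios from -3.24 to 7.11 for the latter. None of the 5 reached 5 CPM in more than 24 cells of either side.

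Cell cycle genes gave the largest ratios in favour of broad cells. All 12 genes of the G2/M list, which drive or carry out mitosis, were called higher in broad cells (100%), with a median log2 ratio of 3.97 (batch medians 2.91 to 4.37). Of the 11 genes of the S phase list, which copy DNA, 9 were called higher in broad cells and none in narrow cells, with a median of 2.28 (1.49 to 2.73). The promoters of 4 G2/M genes, Mki67, Top2a, Cenpf and Cdk1, are shown as examples from the list with the largest median, chosen because they hold 2 motifs known from cell cycle promoters. They are RefSeq sequences of GRCm38.p6 from 250 bases before to 50 bases after the start site, 5′ to 3′ on the strand of the gene. Capitals mark CCAAT, the motif bound by NF-Y, and TTTGAA, the core of the CHR element, on either strand (as ATTGG and TTCAAA on the other strand), and the motifs do not overlap each other in these sequences.
Mki67 (chr7:135716330-135716629, minus strand): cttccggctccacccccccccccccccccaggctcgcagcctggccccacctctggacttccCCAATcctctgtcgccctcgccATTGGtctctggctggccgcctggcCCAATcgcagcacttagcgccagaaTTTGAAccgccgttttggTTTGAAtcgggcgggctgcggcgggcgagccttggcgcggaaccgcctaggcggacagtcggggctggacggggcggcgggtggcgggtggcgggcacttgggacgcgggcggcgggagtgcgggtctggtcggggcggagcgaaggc
Top2a (chr11:99024140-99024439, minus strand): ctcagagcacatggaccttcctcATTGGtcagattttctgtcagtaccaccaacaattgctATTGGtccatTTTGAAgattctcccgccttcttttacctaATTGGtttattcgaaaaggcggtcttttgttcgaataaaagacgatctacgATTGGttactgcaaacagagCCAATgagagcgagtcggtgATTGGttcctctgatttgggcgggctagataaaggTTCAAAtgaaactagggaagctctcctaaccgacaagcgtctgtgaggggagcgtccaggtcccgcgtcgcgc
Cenpf (chr1:189688037-189688336, minus strand): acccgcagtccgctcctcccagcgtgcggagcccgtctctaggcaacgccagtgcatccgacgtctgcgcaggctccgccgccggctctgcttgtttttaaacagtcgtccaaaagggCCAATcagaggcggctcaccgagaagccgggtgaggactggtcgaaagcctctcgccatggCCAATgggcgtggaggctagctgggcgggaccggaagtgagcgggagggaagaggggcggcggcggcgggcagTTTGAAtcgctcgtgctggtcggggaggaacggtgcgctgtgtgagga
Cdk1 (chr10:69352863-69353162, minus strand): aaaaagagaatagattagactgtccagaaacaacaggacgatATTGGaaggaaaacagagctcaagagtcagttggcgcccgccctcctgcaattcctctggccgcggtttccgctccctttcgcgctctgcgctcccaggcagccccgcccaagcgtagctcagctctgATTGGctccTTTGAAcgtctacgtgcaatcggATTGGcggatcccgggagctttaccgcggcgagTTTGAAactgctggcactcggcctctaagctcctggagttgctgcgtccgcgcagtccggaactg
CCAAT was present in 9 of the 10 G2/M genes with a promoter in the table (90%) and TTTGAA in 7 (70%), and both in 7. Of the tested protein-coding genes with a promoter 42.1% held CCAAT, 14.8% TTTGAA and 5.98% both, and among all 32851 promoters, several of which can belong to 1 gene, 37.4%, 17.9% and 6.95% did. Of 9 S phase genes with a promoter, 7 held CCAAT and 1 TTTGAA. The window of Mylk4, which had the largest ratio in narrow cells among called genes at 5 CPM in at least 20% of the cells of a side, also held both motifs (1 CCAAT and 2 TTTGAA), and that of Gm3764, the next, 4 CCAAT. These matches describe letters in a window and say nothing of binding in these cells.

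Mki67 (chr7:135689784-135716361), the proliferation antigen Ki-67, was at 0 to 2076.1 CPM in broad cells (median 30.0) and at 0 to 845 CPM in narrow cells (median 3.55). Summed over cells it was 201.96 and 8.49 CPM in batch 3, 147.5 and 8.95 in batch 4, 757 and 94.4 in batch 8, and 573 and 57.6 in batch 9. Broad cells were higher in each batch, and both day 3 batches were above both day 4 batches on either side. Top2a, which untangles DNA strands, was 256.3 and 12.7 CPM (log2 ratio 4.32, batches 2.84 to 5.13) and reached 5 CPM in 58 broad and 32 narrow cells. Cdk1, the mitotic kinase, was 96.3 and 6.34 CPM, and Aurkb, which corrects the attachment of chromosomes, 55.5 and 2.03 CPM. Cenpf, a kinetochore protein, was 119.3 and 7.14 CPM but only 30 broad and 18 narrow cells reached 5 CPM. Among the replication genes Mcm6 was 91.01 and 16.3 CPM, Mcm2 81.7 and 15.1 CPM and Tyms, which makes thymidylate, 42.1 and 5.51 CPM.

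Few cells carried most of this difference. The summed level of the 12 G2/M markers had a median of 125.04 CPM in broad cells (24.4 to 7748) and 57.1 CPM in narrow cells (0.833 to 1474), and 24 of 74 broad cells (32.4%, 22.005 to 44.3) and 3 of 74 narrow cells (4.05%, 0.844 to 11.4) were above 500 CPM. By batch, 4 of 21, 3 of 19, 8 of 15 and 9 of 19 broad cells were above this level in batches 3, 4, 8 and 9, against 1, 0, 1 and 1 narrow cells. The intervals treat cells as independent draws, and the broad shares by batch ran from 15.8% to 53.3%, beyond both ends of theirs. When cells above 500 CPM were left out before the split, the median log2 ratio of the list was 1.00, and Cenpf (-0.19), Tpx2 (-0.13), Kif11 (-1.12) and Bub1 (-0.99) turned to narrow cells. The S phase list kept 1.67 in that split and 0.51 when breadth was taken as the residual on log reads, where the G2/M list had 0.46. Reads per cell and these markers moved with breadth together, and the part of depth in these values was not tested beyond these splits.

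Most of the 10 genes with the largest ratio in broad cells, chosen among called genes at 5 CPM in at least 20% of the cells of a side, belong to the same process. Neil3, a DNA glycosylase, was 19.8 CPM in broad and 0.138 CPM in narrow cells (log2 ratio 6.39), with 19 broad and 0 narrow cells at 5 CPM or more, although several narrow cells held reads of it below that level. Hmmr, a spindle protein, was 47.9 and 0.608 CPM (6.08). Pbk (5.51), Ccnb1 (5.23), Ndc80 (5.16), Gas2l3 (5.11) and Kif14 (5.01) act in mitosis or cytokinesis. Pask, a metabolic kinase, was found more evenly, in 39 broad and 2 narrow cells at 5 CPM or more, with 21.8 and 0.373 CPM (5.53). The atypical cadherin Fat3 (5.52) and the matrix protein Thbs4 (5.09) were higher in the day 4 batches, and 51.4% of the Thbs4 reads of broad cells came from 1 cell. Apart from Fat3 (2.48 to 6.67 over 24 alternatives) and Thbs4 (3.61 to 8.96), these ratios depended on the split. When breadth was the residual on log reads, Neil3 had 0.92, Hmmr 0.60, Pask 0.66, Pbk 0.54, Ccnb1 0.26, Kif14 0.52 and Gas2l3 -0.11, and without cells above 500 CPM of G2/M markers Neil3 had 0.47, Pbk 0.24 and Kif14 0.34.

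**Figure D3:**
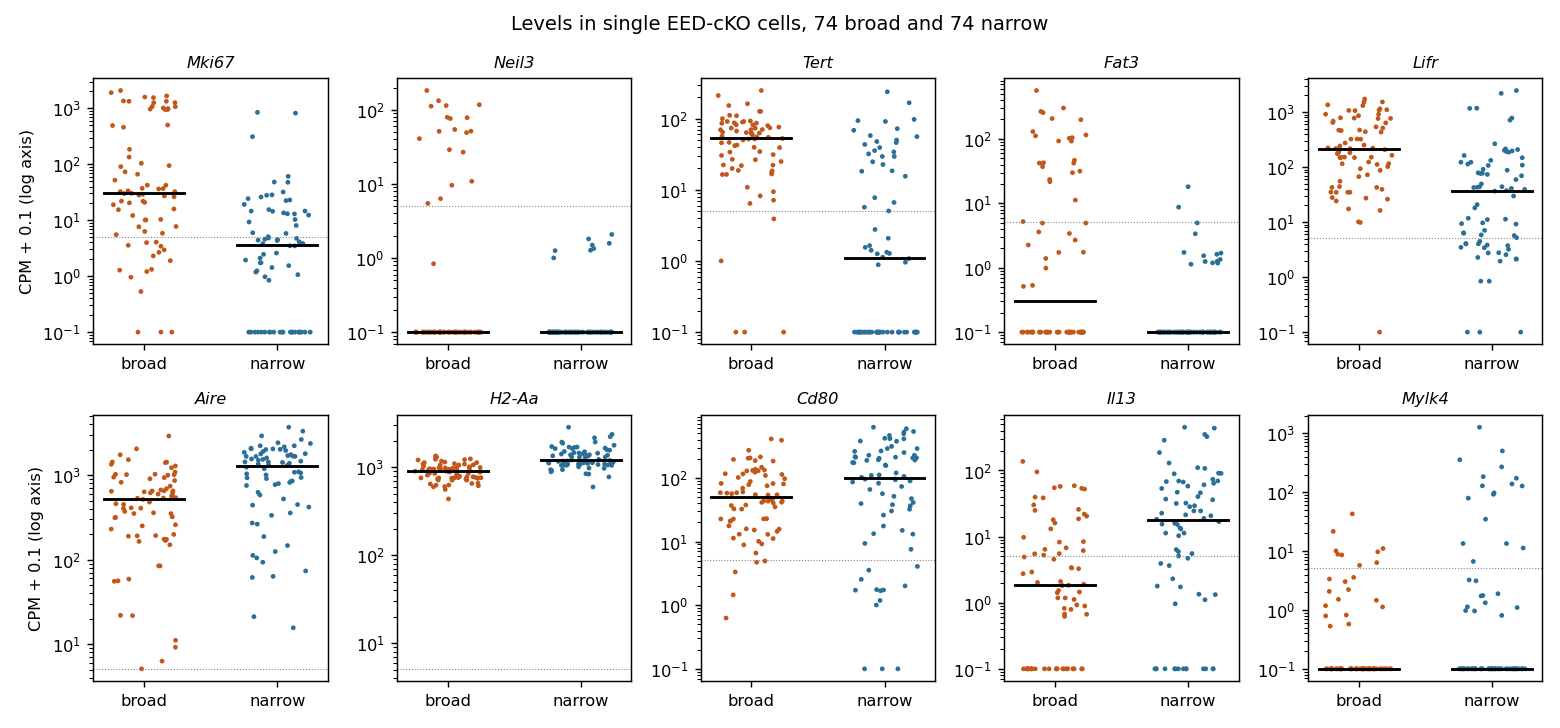
Levels of 10 genes in single EED-cKO cells, as CPM plus 0.1 on a log axis, with 1 point for each of 74 broad and 74 narrow cells, a bar at the median and a dotted line at 5 CPM. Mitotic genes are high in a subset of broad cells, whereas Aire differs in its median, 526 CPM in broad and 1275 CPM in narrow cells, with overlapping ranges.

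A different set of genes separated the sides by the number of cells that expressed them. Tert (chr13:73626911-73649843), the catalytic subunit of telomerase, was at 5 CPM or more in 69 of 74 broad cells (93.2%) and 27 of 74 narrow cells (36.5%). Summed over the cells of a batch, its level ran from 47.97 to 66.4 CPM in the broad and from 10.5 to 25.2 CPM in the narrow cells. Broad cells were higher in each batch, and no single cell held more than 10.4% of the reads of a side. Mtr, methionine synthase, reached 5 CPM in 58 broad and 9 narrow cells (25.9 and 5.50 CPM), although 62.8% of its narrow reads came from 1 cell. Erf, an ETS repressor, reached it in 61 and 18 cells (27.8 and 7.51 CPM). Mxd3, a partner of Max in proliferating cells, did so in 55 and 12 cells (17.1 and 2.29 CPM), Fgd1 in 60 and 18, Grip1 in 61 and 19, Slc25a27 in 61 and 19, Gm36936 in 65 and 22 and 2010007H06Rik in 50 and 8. Rrp1b, found in 68 and 25 cells, was not called, as its log2 ratio was -0.13 in 1 batch. The share of cells that pass a level enters breadth directly, so that these 10 genes were picked by a measure close to the rule itself.

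Zinc finger genes, a family of DNA-binding proteins many of which repress retroelements, shifted as a group by a small amount. Of 324 tested Zfp genes all but 50 had a log2 ratio above 0, 52 (16.0%) were called higher in broad and 2 in narrow cells, and the median was 0.53 (batches 0.47 to 0.67). A broad cell had on average 218.4 of these genes at 5 CPM or more and a narrow cell 158.2, a count that enters breadth itself and stands beside 12282 and 10057 for all genes. Zfp106 was 313 and 221.02 CPM and Zfp451 204.5 and 130.7 CPM, both below the call limit. The median of this list stayed between 0.29 and 0.80 in all the alternatives run. Of 48 histone genes 14 were called higher in broad and none in narrow cells (median 1.12, batches -0.23 to 1.80), and without cells above 500 CPM of G2/M markers the median was 0.12. H2afy2, which codes for a macroH2A variant, was 36.9 and 15.9 CPM. Of 29 clustered protocadherins, neuronal adhesion proteins, 9 were called higher in broad and none in narrow cells (median 0.92, batches 0.38 to 2.07), and Pcdhgc3 was 23.8 and 12.2 CPM.

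Among the markers of immature mTEC-low, 10 of 11 were above 0 and 2 were called higher in broad cells, with a median of 0.45 (0.14 to 1.06). Lifr, the receptor of leukaemia inhibitory factor, was at 0 to 1719 CPM in broad cells (median 211.3) and at 0 to 2455.8 CPM in narrow cells (median 36.8). Summed, it was 438 and 184.4 CPM with broad cells higher in each batch (log2 ratio 1.25, 0.75 to 2.05). Tgfbi, a matrix protein, was 306 and 151.1 CPM. The basal keratins Krt5 (387 and 263.98 CPM) and Krt14 (265.99 and 260.3 CPM) were not called. Tubb5, a tubulin, was the 1 called gene of 15 housekeeping genes, with 622 and 273.4 CPM, while Actb was 1079 and 1517 CPM.

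The reads of genes called higher in narrow cells were spread less evenly over cells. For the median such gene 21.2% of the reads of the narrow side came from 1 cell, and for 61 of the 708 (8.62%) more than 50% did. For genes called higher in broad cells the median was 11.1%, with 58 (2.49%) above 50%. The number of cells at 5 CPM or more differed less, with 25 narrow cells for the median gene called in narrow and 28 broad cells for the median gene called in broad cells. The 708 genes took 1.98% of the reads of broad and 5.30% of the reads of narrow cells.

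Keratins had the highest share of such genes among the gene families listed. Of 37 tested, 14 (37.8%) were called higher in narrow cells and none in broad cells, and the median log2 ratio was -1.18 (-1.39 to -0.19) against 0.21 for all genes. Krt9, a keratin of palm and sole skin, was 18.1 CPM in broad and 135.1 CPM in narrow cells and reached 5 CPM in 13 and 36 cells. Krt4, of mucosal epithelium, was 4.07 and 66.5 CPM in 10 and 20 cells at 5 CPM or more. Krt84, a hair keratin, was 4.12 and 40.6 CPM, but 79.5% of its narrow reads came from 1 cell and 22 broad cells against 19 narrow cells reached 5 CPM. The keratins of simple epithelium were in nearly all cells and were not called, with Krt18 at 287.1 and 428 CPM and Krt8 at 203.4 and 294.6 CPM. Of 7 tested gut and liver markers all were below 0 and 2 were called, among them Apob (8.93 and 89.5 CPM), which reached 5 CPM in 9 broad and 11 narrow cells and turned to 1.53 among cells of 900000 to 1500000 reads.

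Among the 10 genes with the largest ratio in narrow cells, Mylk4, a muscle kinase, was 1.73 and 41.4 CPM (log2 ratio -4.50), with 9 broad and 17 narrow cells at 5 CPM or more. Gm3764 was 4.41 and 99.1 CPM (-4.46), with 17 and 16 such cells. Among the others were Krt4, Tmem35a (-3.57), Alox12b (-3.56), a lipoxygenase of the skin barrier, Klk10 (-3.46), Prdm14 (-3.34), a germ cell regulator, Mep1b (-3.29), a gut protease, and Krt84 (-3.27). Between 15 and 21 narrow cells reached 5 CPM for each of the 10.

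Some genes, picked by the same difference in the share of cells, were found in more narrow cells. Gsta2, a glutathione transferase, was at 5 CPM or more in 19 broad (25.7%) and 44 narrow cells (59.5%), with 6.13 and 35.7 CPM. The cytokine Il13 was found in 27 and 49 cells (12.1 and 59.4 CPM) and Il21 in 38 and 60 (6.17 and 15.5 CPM). Ctcfl, the testis paralog of CTCF, was in 8 and 30 cells and Psors1c2 in 21 and 42. Of 14 tested classic tissue antigens 5 were above 0, and 1 was called in each direction. In narrow cells this was Gad1, an enzyme of GABA synthesis, at 31.5 and 146.03 CPM, while Csn2, beta-casein, was 278.03 and 481 CPM and Mbp, of myelin, 128.2 and 200.1 CPM without being called. The median of the list was -0.71 (-0.86 to -0.03), and with 10% of cells at each end it was 0.17. Ccl22, a chemokine that attracts CCR4-bearing cells, was the 1 called gene of 8 chemokines, with 58.5 and 223.2 CPM. Sirt1, a deacetylase known to act on Aire, was 186.1 and 463 CPM with a narrow range of batch ratios (-1.45 to -1.14). It was the 1 gene called higher in narrow cells among 17 listed Aire partners and elongation factors. Of these, 13 were above 0 and 3 were called higher in broad cells, with a median of 0.28 (batches 0.17 to 0.39). Among the 12 genes of NF-kB and TNF receptor signalling none was called, and Nfkb2 was 477 and 677 CPM and Nfkbia 378 and 546 CPM.

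Markers of the cortex and of thymic cells that resemble peripheral tissues were mixed. Of 8 tested genes of cortical thymic epithelium 2 were called higher in narrow cells, Ly75, an endocytic receptor (66.4 and 133.7 CPM), and Dll4, a Notch ligand (42.9 and 95.4 CPM), and the list median was -1.01 (batches -1.33 to 0.28). Cldn4, a tight junction protein, was the 1 called gene of 7 pan-epithelial markers, with 56.4 and 157.3 CPM. In the other direction, Dclk1, a kinase that marks tuft cells, was 179.6 and 86.8 CPM and reached 5 CPM in 72 broad and 53 narrow cells, as the 1 called gene of 7 tested tuft genes. The pooled median of these 7 was -0.71, which the batch medians (-0.37 to 0.21, of both signs) did not reach and which ran from -0.92 to 1.14 over the alternatives, and their summed level was 228.7 CPM in broad and 178.5 CPM in narrow cells. Syp, synaptophysin of neuroendocrine cells, was called higher in broad cells (9.50 and 3.73 CPM, 17 and 13 cells at 5 CPM or more), whereas the other 6 tested neuroendocrine genes were below 0 (list median -0.44, batches -0.73 to 0.39). No gene was called among the keratinocyte, microfold and ciliated markers, whose medians were -0.65 (batches -1.30 to 0.34), 0.48 (-0.10 to 0.66) and -0.04 (-0.66 to 0.31), and Spib, a transcription factor of microfold cells, was 429 and 438 CPM. All 7 tested airway secretory genes were below 0, with 1 called higher in narrow cells, Scgb1a1, a secretoglobin (9.17 and 19.3 CPM), and a median of -0.88 (batches -1.31 to 0.85). Of 10 myoid genes 6 were above 0 and 1 was called, Actc1, cardiac actin (12.02 and 29.7 CPM), of whose reads 87.6% in broad and 48.1% in narrow cells came from 1 cell. The myoid median was 0.06 (batches -0.71 to 0.03). Of 34 serpins, protease inhibitors, 6 were called higher in narrow and none in broad cells (median -0.13, batches -0.69 to 0.19), among them Serpinb6b (72.8 and 172.7 CPM) and Serpinb9 (111.2 and 230.8 CPM).

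**Figure D4:**
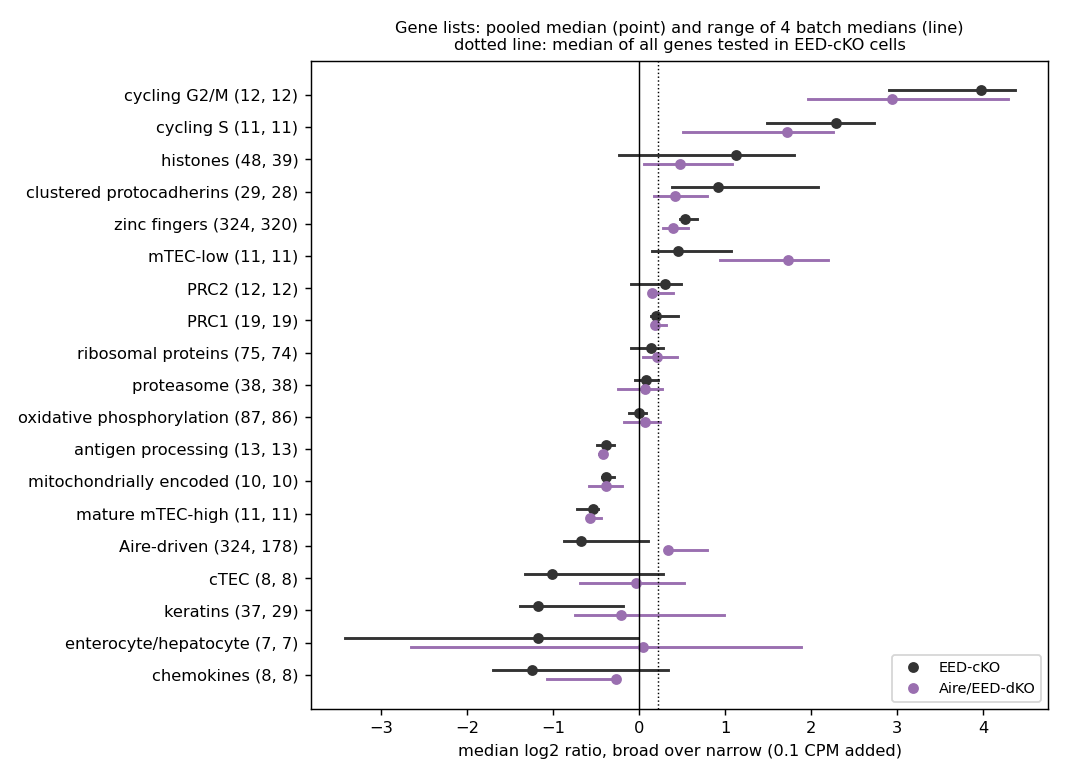
Median log2 ratio of broad over narrow cells for 19 gene lists, as points, with lines for the range of the 4 batch medians, drawn for each genotype; numbers beside a name are the genes tested in each. In EED-cKO cells the G2/M list lies highest at 3.97 and chemokines lowest at -1.24.

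Polycomb genes and basic cellular machinery differed little. Among 12 PRC2 genes 9 were above 0 and Ezh2 alone was called higher in broad cells, with 60.0 and 26.1 CPM (log2 ratio 1.19, batches 0.11 to 1.55), and it is also a known gene of dividing cells. Suz12 was 93.6 and 86.7 CPM, Rbbp4 211.3 and 162.2 CPM and Jarid2 316 and 349 CPM. Eed was 12.5 and 9.28 CPM (0.42, 0.09 to 0.71), and reads over the whole gene do not measure the deletion. The 75 ribosomal protein genes had a median of 0.14 and the 87 respiratory chain genes one of 0.00, with 0 and 1 called. The 10 mitochondrially encoded genes were all below 0 (median -0.39, -0.44 to -0.29), with mt-Rnr2 at 1485 and 2058.1 CPM, and among cells of 900000 to 1500000 reads their median was -0.00. Textbook PRC2 targets differed in direction between summed reads and cells. Of 24 Hox genes 15 were below 0, 2 (8.33%) were called higher in broad and 5 (20.8%) in narrow cells (median -0.35, batches -1.11 to 0.37), with Hoxa9 at 7.77 and 21.8 CPM, and of 59 developmental transcription factors 38 were below 0 and 3 (5.08%) and 5 (8.47%) were called (median -0.40, batches -0.38 to 0.00). Without batch 9 the Hox median was 0.02. By cells at 5 CPM or more, which breadth counts, 25 Hox genes were in more broad and 8 in more narrow cells, and 46 and 20 of the developmental factors were. Over all genes, 22461 were in more broad and 7821 in more narrow cells, so these counts lie near the background of the split. The nuclear RNA Malat1 was 2392.5 and 3550 CPM and was not called.

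Markers of cells outside the sort gate were found on both sides, the fibroblast list at the highest summed level over the pooled cells. In narrow cells of batch 9 the myeloid list was higher, at 432 CPM against 282.3 CPM. The 11 thymocyte markers summed to 108.3 to 185.3 CPM in the batches of broad cells and 98.2 to 328 CPM in those of narrow cells, where Lck was called higher in broad (21.2 and 10.1 CPM) and Thy1 higher in narrow cells (74.6 and 165.03 CPM). The 8 myeloid markers summed to 160.5 to 333 CPM in broad and 432 to 480 CPM in narrow cells, of which Lyz2 gave 187.3 and 370 CPM, and none was called. The 5 B cell markers summed to 59.9 to 148.5 and 29.8 to 298.1 CPM, with Ms4a1 called higher in broad cells (8.66 and 1.26 CPM, 8 and 3 cells at 5 CPM). The 7 fibroblast markers summed to 253.4 to 951 and 282.3 to 918 CPM, the 5 endothelial ones to 14.3 to 69.9 and 14.2 to 117.7 CPM, and the 5 erythroid ones to 7.59 to 19.1 and 6.54 to 11.5 CPM, with none called. Each marker of these 6 lists reached 5 CPM in at least 1 EED-cKO cell, and their part in the differences was not tested.

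The same split in Aire/EED-dKO cells gave 66 broad and 66 narrow cells, in a genotype labelled as lacking Aire. Of 20635 genes tested there, 10.3% were called higher in broad and 1.82% (376 genes) higher in narrow cells. Without the Aire/EED-dKO cells at 100 CPM or more of Aire, an alternative added after the data were seen, these shares were 10.3% and 2.02% and the median of Aire-driven genes was 0.22 beside 0.33. Over 20009 genes tested in both genotypes, 674 were called higher in broad cells in both, which is 32.2% of the EED-cKO calls and 32.3% of the Aire/EED-dKO calls. Of the calls in narrow cells 84 were shared, 13.3% and 25.0%. The G2/M list had a median of 2.94 (10 of 12 called) and mature mTEC-high genes one of -0.57 in Aire/EED-dKO cells, and Cd80 was called higher in narrow cells in both genotypes (156.5 and 322 CPM in Aire/EED-dKO). H2-Aa was 1151 and 1711 CPM there, a log2 ratio of -0.57 beside -0.53 in EED-cKO.

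Other lists had different values in the genotypes, and none of these differences was tested. Keratins had 14 narrow and 0 broad calls in EED-cKO cells and 5 and 5 in Aire/EED-dKO cells, where the median was -0.21. Fewer Aire-driven genes could be tested in Aire/EED-dKO cells, of which 27 (15.2%) were called higher in broad and 10 (5.62%) in narrow cells. Over the 39.4% of Aire-driven genes tested in both genotypes, the median was -0.63 with Aire intact and 0.36 in Aire/EED-dKO cells. For all tested Aire-driven genes, the EED-cKO median was 0.10 in batch 3 and changed sign in some splits that alter depth. The median of all genes tested in Aire/EED-dKO cells was 0.22. Collagens had 4 broad and 2 narrow calls of 44 in EED-cKO cells, against 15 and 2 of 38 in Aire/EED-dKO cells. The mTEC-low list had 2 of 11 and 7 of 11 called higher in broad cells, with medians of 0.45 and 1.73. Gal was called higher in narrow cells in EED-cKO and higher in broad cells in Aire/EED-dKO (2.44 and 0.613 CPM), as 1 of 14 genes with this pattern, and 3 genes had the opposite one. Genotypes never shared a batch, so genotype and batch cannot be told apart in this comparison.

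**Figure D5:**
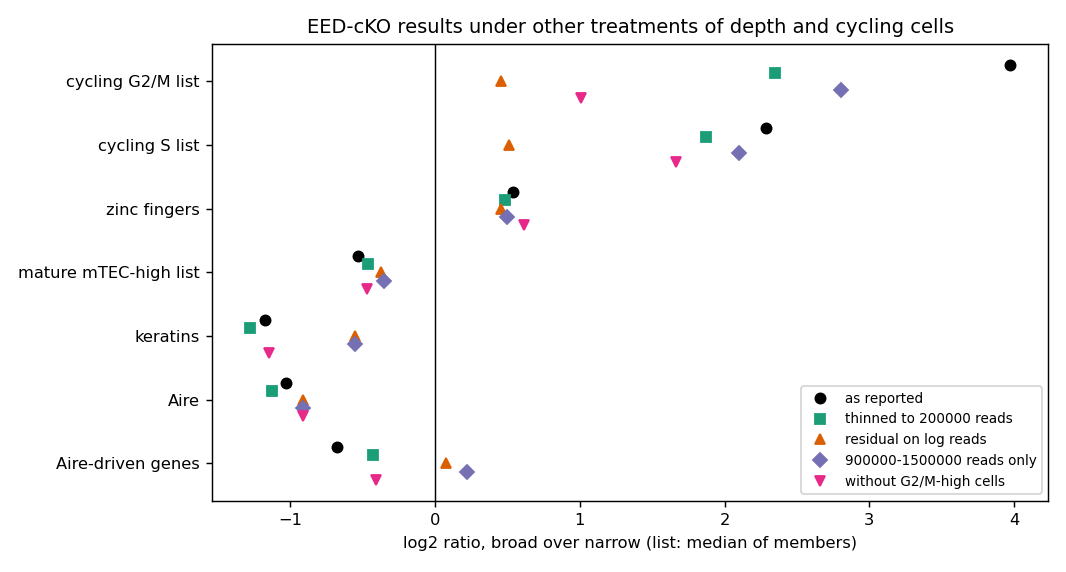
Log2 ratio of broad over narrow EED-cKO cells for Aire and the median for 6 gene lists, under the split as reported and 4 other splits that change depth or leave out cells above 500 CPM of G2/M markers. The G2/M list runs from 0.46 to 3.97 and Aire-driven genes cross 0, while Aire, mature mTEC-high genes, keratins and zinc fingers keep their sign.

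Scaling shifts all ratios at once. With TMM factors of edgeR or size factors of DESeq2 the median log2 ratio of all genes was 0.02 and 0.00 in place of 0.21. The calls were then 1556 higher in broad and 1057 in narrow cells by TMM and 1507 and 1101 by DESeq2, so that 59.5% and 57.8% of calls lay in broad cells against 76.7% with CPM. The median of the PRC1 list, 0.20 with CPM, was -0.00 and -0.02, and that of ribosomal proteins -0.06 and -0.08. When cells were split on a random part of their reads and levels were taken from the other part, 9.22% of genes were called higher in broad and 3.44% in narrow cells, and Aire had a log2 ratio of -1.06.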

How the data were processed

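RamDA-seq libraries, full-length total RNA of 1 sorted cell each, were sequenced and processed by the authors, who trimmed reads (fastp 0.20.0), aligned them to the mouse genome mm10 with STAR 2.7.3a, removed reads of mapping quality under 5 and duplicates (SAMtools 1.9, Picard 2.21.1), and counted the rest per gene without regard to strand (HTSeq 0.11.2); the tool versions are from the submitters' processing notes. Cells with over 200000 reads and 8000 genes were kept by the authors. The deposited table holds raw counts of 50197 genes in 572 cells, and 0 columns were left without a label. A second deposited table, of natural-log normalized values of the same cells, was not used. Counts without strand cannot separate overlapping or antisense genes. Total counts per EED-cKO cell ranged from 216139 to 2419312 reads.

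Gene names and positions came from GENCODE M21 (GRCm38), and 186 identifiers had no name. Breadth, groups and calls were computed as stated above, with floor(25%) of the cells of a batch on each side and ties taken in column order. Gene lists, 53 in all, were read as the number of called members and the median log2 ratio beside those of all genes. The members and the lists were chosen with earlier results of these data known. Genes named were Aire, Eed, Ezh2, Suz12, Cd80, H2-Aa and Epcam, the 10 genes of largest ratio in each direction among called genes at 5 CPM in at least 20% of the cells of a side, the 10 of largest difference in the share of cells in each direction with all 4 batches agreeing in sign, up to 4 most abundant members of each list with any called marker, and the first 5 Aire-driven genes. Genes named for a sign that turned were named after their values were seen. Some genes that this rule selects are not reported here. The labels name no animal, so the spread between batches is not a replicate error and no p-value was computed.

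Alternatives changed the breadth limit (1 or 10 CPM), the depth (thinning to 200000 reads, residual on log reads), the share of cells (10% or 50% at each end), the age, the cells (Aire at 100 CPM or more, no G2/M-high cells), the averaging, the scaling, the CPM added (0.01 or 1), the gene filter, and left out each batch. Cells of 500000 reads or more, of 900000 to 1500000 reads, and Aire/EED-dKO cells with Aire below 100 CPM were added after seeing the data. Steps were tested on simulated data with known ratios. Python 3.11.15, numpy 2.4.6, pandas 2.3.3, scipy 1.17.1, matplotlib 3.10.9, R 4.3.3, edgeR 4.0.16 and DESeq2 1.42.0 were used, the last 2 for scaling factors only. The bulk, multiome and CUT&Tag data of the study were not analysed here.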

Additional observations from a re-analysis of the deposited data

Results flagged for a closer look

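Of the values examined over the 4 EED-cKO batches (genes named, gene lists and the breadth difference), 12 (7.5%) had 1 batch far from the others by Dixon's gap ratio, where chance gives about 1 in 20. Among log2 ratios of broad over narrow cells, Cd80 was -0.093 in batch 3 and -1.56 to -1.42 elsewhere. Krt8 was -0.27 in batch 4 against -0.65 to -0.62. Krt17 was -0.58 in batch 8 against -0.10 to -0.07. Grip1 was 5.33 in batch 9 against 0.78 to 1.17, and 2010007H06Rik 1.34 in batch 9 against 3.12 to 3.41. Actc1 was -6.53 in batch 8 against -1.66 to -0.75 elsewhere. Among list medians, mature mTEC-high was -0.73 in batch 9 against -0.51 to -0.48, PRC2 -0.10 in batch 4 against 0.41 to 0.48, the H3K27 demethylase and MLL list 0.25 in batch 3 against 0.49 to 0.50, and B cell markers 1.14 in batch 8 against -0.10 to -0.01. Erythroid and parathyroid lists, of 1 tested gene each, were 1.93 in batch 4 and -4.25 in batch 9.

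Of the values compared between genotypes, 2 (1.32%) had opposite signs in every batch. Krt17, a keratin of basal and stressed epithelium, had a log2 ratio of -0.20 in EED-cKO cells and 1.24 (0.99 to 1.46) in Aire/EED-dKO cells. Gal had -1.77 in EED-cKO and 1.83 (0.79 to 4.57) in Aire/EED-dKO cells. These differences between genotypes were not tested.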

How the results depend on the processing

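No paired analysis was possible because the replicate numbers of the labels count single cells and pair no cells across sides or genotypes. This concerns pairs of single cells only, since both sides share each batch and can be matched by it. As a mean of within-batch log2 ratios Aire was -1.05, with 11.8% and 3.26% of genes called in broad and narrow cells. The difference of the mean breadth, 2224.95 genes, was 3147.7 and 1805.8 with limits of 1 and 10 CPM, 2021.6 as a residual on log reads, 3394 and 1332.7 with 10% and 50% of cells at each end, and 2016.9 in cells of 900000 to 1500000 reads. In the same order, the share of tested genes higher in narrow cells, 3.22%, was 1.75%, 4.96%, 1.63%, 1.99%, 1.99% and 1.68%. Genes higher in broad cells, 10.6%, were 17.2% and 3.18% with 10% and 50% of cells. With fewer batches the rule is met more easily, with 16.3% and 5.95% called in broad and narrow cells at day 4, 19.7% and 9.17% at day 3, and 12.6% to 14.1% and 3.73% to 5.28% with 1 batch left out, where the narrow calls exceeded 1.5 times their count without batch 3 (5.28%, 1159 genes) and batch 4 (4.99%, 1096 genes). Under DESeq2 scaling they were 6.86% and 5.01%, and with 5 reads in 20% of cells 9.34% (1427 genes) and 3.06% (467 genes). The Aire log2 ratio of -1.03 was -1.18 with a 10 CPM limit, -1.40 and -0.58 with 10% and 50% of cells, -1.23 (TMM) and -1.25 (DESeq2), and -1.07 to -0.98 without 1 batch. The median of Aire-driven genes was -0.17 with a 1 CPM limit, and turned to 0.074 (residual) and 0.22 (900000 to 1500000 reads); the cause was not tested. In Aire/EED-dKO cells, calls in narrow cells, 1.82%, were 1.11% and 2.75% at 1 and 10 CPM, 1.10% with 50% of cells, 3.04% (TMM), 3.17% (DESeq2), 1.59% with the stricter filter and 2.42% to 3.20% without 1 batch, above 1.5 times their count without batch 1 (616 genes), batch 2 (660 genes) or batch 7 (618 genes). Calls in broad cells there were 4.21% with 50% of cells and 8.18% with that filter. Among called genes and among lists whose batch medians all had the sign of the pooled median, signs turned for Scgb1a1 (0.17, 1 CPM limit), Gas2l3 (-0.11, residual), classic tissue antigens (0.17) and Olfr109 (0.94, both with 10% of cells), Apob (1.35 with 50% of cells, 1.53 at 900000 to 1500000 reads), Actc1 (0.39, same window), PRC1 (-0.0040 by TMM, -0.020 by DESeq2), and, without G2/M-high cells, Cenpf (-0.19), Tpx2 (-0.13), Kif11 (-1.12) and Bub1 (-0.99). Of all 7820 values of lists and genes under the alternatives, these included, 6997 moved by less than the spread between batches, and 42.04% of these lists and genes, called or not, had another sign in at least 1 alternative.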
